A study of Mus musculus with 6 samples.

Results

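The 36 genes described here act in the cell division cycle: 14 in S phase, when DNA is copied, and 22 in mitosis, when the copied chromosomes are separated and the cell divides. They were taken from a list of symbols, not by a rule on their measured values. The list was chosen with earlier results of these data known. All 36 stood in both deposited tables, which share 21982 gene symbols. RNA was measured in 6 libraries of mouse olfactory epithelium, the sheet of nasal tissue that senses odours. At E18.5, shortly before birth, there was 1 library for each of 4 genotypes: G9a/GLP dKO, in which both genes are knocked out; G9a KO GLP het, a G9a knockout heterozygous for GLP; G9a KO; and G9a het, heterozygous for G9a. At postnatal day 21 (PND21) there was 1 library of Suv420h dKO, knocked out for both Suv420h1 and Suv420h2, and 1 of Suv420h dhet, heterozygous for both. G9a (Ehmt2) and GLP (Ehmt1) methylate histone H3 at lysine 9, and the Suv420h enzymes methylate histone H4 at lysine 20. All animals came from a mixed background, mostly C57/B6, and none of the 6 libraries is labelled wild type, so every library set beside a knockout carries a heterozygous deletion itself. The labels give no Cre driver, no deleted exon, no sex and no number of animals per library.

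New olfactory neurons arise throughout life from dividing basal progenitors, and the epithelium grows quickly before birth, so transcripts of the division cycle mark its dividing cells. In G1, licensing factors load the MCM helicase at replication origins; cyclin E then starts S phase, in which PCNA holds the polymerases on DNA and ribonucleotide reductase and thymidylate synthase supply nucleotides. Entry into mitosis is driven by CDK1 with cyclins A and B, chromosome attachment is watched by the checkpoint kinases, and exit follows when the anaphase-promoting complex has its targets destroyed. Many mitotic genes are held silent in resting cells by the DREAM complex and switched on by B-MYB and FOXM1 through CCAAT boxes and the cell cycle homology region (CHR), while many S phase genes answer to E2F factors.

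Values are FPKM, fragments per kilobase of transcript and per 1000000 mapped fragments, as the authors deposited them, so levels can be compared between genes per length. With 1 library per genotype there was no replicate error and no test between groups, and the differences below are between libraries. Ratios are on the log2(FPKM + 1) scale, which understates the differences of low genes, and were computed for genes at 1 FPKM or more in either library. FPKM summed to between 352950 and 366752 in the embryonic libraries and to 554440 in Suv420h dKO and 490013 in Suv420h dhet. No targeted gene was 1.5-fold lower in a library labelled as its knockout. Ehmt2 had 30.4 FPKM in G9a/GLP dKO, 32.5 in G9a KO GLP het, 30.2 in G9a KO, against 24.5 in G9a het. Ehmt1 had 16.02 FPKM in G9a/GLP dKO, against 17.3 in G9a het. Suv420h1 had 30.6 FPKM in Suv420h dKO, against 31.0 in Suv420h dhet, and Suv420h2 had 7.35 FPKM in Suv420h dKO, against 7.92 in Suv420h dhet. A deletion of part of a gene can leave its summed transcript level as it was, so this does not check the genotype, and libraries are named by their labels throughout. Xist, made from the inactive X chromosome, had 208 FPKM in G9a/GLP dKO, 0.272 in G9a KO GLP het, 140 in G9a KO, against 0.242 in G9a het, so the sex of the embryos differed between the libraries.

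At E18.5 all 36 genes were expressed at 1 FPKM or more in each of the 4 libraries. The most abundant by FPKM were mitotic. Ube2c, the ubiquitin-conjugating enzyme of the anaphase-promoting complex, had 56.0 FPKM in G9a/GLP dKO, 41.9 in G9a KO GLP het, 52.1 in G9a KO, against 48.3 in G9a het. Top2a, the topoisomerase that untangles sister chromatids, had 43.1 FPKM in G9a/GLP dKO, 48.3 in G9a KO GLP het, 44.7 in G9a KO, against 41.5 in G9a het. Birc5 (survivin), a subunit of the chromosomal passenger complex, had 43.9 FPKM in G9a/GLP dKO, 46.1 in G9a KO GLP het, 46.8 in G9a KO, against 40.4 in G9a het. The authors' intervals in G9a het did not follow this order. They were 20.9 to 54.4 FPKM for Ube2c, 40.7 to 90.9 for Top2a and 27.5 to 53.3 for Birc5. The least abundant was Cdc6, which loads the MCM helicase, at 3.09 FPKM in G9a/GLP dKO, 3.40 in G9a KO GLP het, 2.82 in G9a KO, against 2.24 in G9a het. Each gene varied little between the 4 libraries: the highest value divided by the lowest was between 1.07 (Rrm1) and 1.76 (Ccne2), with a median of 1.32.

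**Figure D1:**
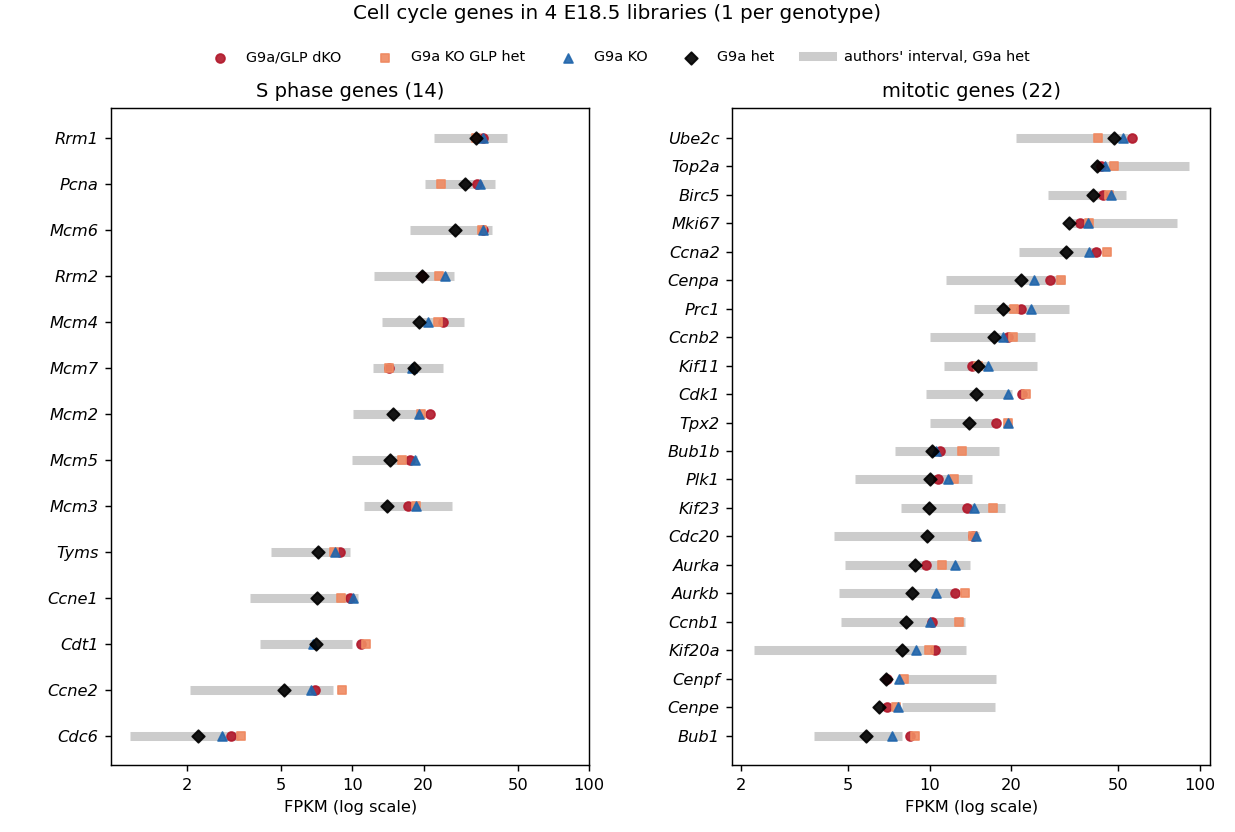
FPKM (log scale) of the 14 S phase and 22 mitotic genes in the 4 E18.5 libraries, 1 symbol per library, with the authors' confidence interval of G9a het as a grey bar. The black diamonds of G9a het stand leftmost in 31 of 36 rows, and the widest spread, 1.76-fold, is that of Ccne2.

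The promoters of the most abundant mitotic and S phase genes are shown because these groups are known to be driven through different short motifs. Each is the 250 bases before the annotated start, from RefSeq on GRCm38.p6, read 5′ to 3′ on the gene's strand, while gene coordinates elsewhere are on mm9. Capitals mark CCAAT boxes (CCAAT, or ATTGG on the other strand), the CHR (TTTGAA, or TTCAAA) and E2F-like motifs (TTCCCGC or TTGGCGC, or GCGGGAA or GCGCCAA). Ube2c is at chr2:164769679-164769928 (plus strand), Top2a at chr11:99024190-99024439 (minus), Birc5 at chr11:117848987-117849236 (plus), Rrm1 at chr7:102441445-102441694 (plus) and Pcna at chr2:132253181-132253430 (minus).
Ube2c: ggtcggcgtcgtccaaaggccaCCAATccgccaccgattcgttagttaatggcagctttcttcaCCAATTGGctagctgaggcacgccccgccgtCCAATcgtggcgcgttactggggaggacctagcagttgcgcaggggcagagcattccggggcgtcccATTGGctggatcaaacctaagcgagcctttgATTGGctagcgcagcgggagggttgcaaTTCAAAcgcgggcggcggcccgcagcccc
Top2a: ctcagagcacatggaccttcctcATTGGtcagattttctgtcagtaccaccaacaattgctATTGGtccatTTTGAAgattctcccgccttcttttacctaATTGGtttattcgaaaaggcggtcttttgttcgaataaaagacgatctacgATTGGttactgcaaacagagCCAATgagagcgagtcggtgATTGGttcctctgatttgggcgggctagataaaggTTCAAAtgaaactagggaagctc
Birc5: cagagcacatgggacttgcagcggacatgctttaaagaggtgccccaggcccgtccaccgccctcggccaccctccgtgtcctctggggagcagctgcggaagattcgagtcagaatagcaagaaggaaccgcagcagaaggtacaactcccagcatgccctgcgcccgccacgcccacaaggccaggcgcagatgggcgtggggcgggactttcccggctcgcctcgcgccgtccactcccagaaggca
Rrm1: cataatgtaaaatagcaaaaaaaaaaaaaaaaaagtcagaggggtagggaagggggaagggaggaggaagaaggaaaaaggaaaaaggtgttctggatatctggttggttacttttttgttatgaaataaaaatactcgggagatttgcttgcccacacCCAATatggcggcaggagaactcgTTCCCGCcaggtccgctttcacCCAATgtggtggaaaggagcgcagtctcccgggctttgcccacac
Pcna: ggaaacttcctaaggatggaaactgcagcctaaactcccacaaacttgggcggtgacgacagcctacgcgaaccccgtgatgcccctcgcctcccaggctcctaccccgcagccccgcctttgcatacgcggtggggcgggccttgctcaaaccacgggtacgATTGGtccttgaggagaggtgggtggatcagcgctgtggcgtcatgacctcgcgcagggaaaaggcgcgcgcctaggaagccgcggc
Ube2c held 6 CCAAT boxes, of which 1 pair overlaps on opposite strands (CCAATTGG), and 1 CHR that ends 24 bases before the start. Top2a held 6 CCAAT boxes and 2 CHR motifs, the nearer ending 18 bases before the start. Birc5, close to Top2a in FPKM, held none of these letters in its window. Rrm1, the large subunit of ribonucleotide reductase, held 2 CCAAT boxes with 1 E2F-like motif between them, and Pcna held 1 CCAAT box.

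A promoter window was found for 30 of the 36 genes; Mcm4, Ccne2, Ccna2, Aurkb, Kif20a and Tpx2 are named only. CCAAT stood in 17 of 18 mitotic and 8 of 12 S phase windows, against 34.5% of the windows of 27025 genes. TTTGAA stood in 7 of 18 mitotic windows and in 1 of 12 S phase windows, that of Mcm2, against 16.3% of all windows. All 7 of those mitotic windows, in Cdk1, Ccnb2, Cdc20, Ube2c, Kif11, Top2a and Mki67, also held CCAAT, and 5.73% of all windows held both. An E2F-like motif stood in 5 of 12 S phase windows (Cdc6, Mcm5, Mcm6, Mcm7 and Rrm1) and in 3 of 18 mitotic ones (Cdk1, Ccnb1 and Mki67), against 5.71% of all windows. A match of letters is not a binding site, and no binding was measured.

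Set against G9a het, nearly all of the genes were somewhat higher in the library labelled G9a/GLP dKO, and none by much. The log2 ratio was above 0 for 34 of 36 genes, against 51.1% of all 15382 genes compared, and its median was 0.28, against 0.0084 over all genes. None was 2-fold higher, against a background of 2.28%, and none 2-fold lower, against 3.28%; at 1.5-fold the count was 0 too, against 7.29% higher and 7.85% lower. The authors' confidence intervals overlapped for every one of the 36. They lay apart for 3.49% of all genes, a share at which few of 36 genes would lie apart. S phase genes had a median of 0.30 and mitotic genes of 0.21.

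Among the licensing factors the values of G9a/GLP dKO differed most from those of G9a het at Cdt1. Cdt1 (mm9 chromosome 8, 125091915 to 125097030), which loads the MCM helicase with Cdc6, had 10.9 FPKM in G9a/GLP dKO, 11.5 in G9a KO GLP het, 6.80 in G9a KO, against 7.05 in G9a het. It was therefore high in the libraries that also lack 1 or both copies of GLP and alike in the other pair, with log2 ratios of 0.56 for G9a/GLP dKO, 0.63 for G9a KO GLP het and -0.045 for G9a KO. The authors' interval was 6.91 to 14.9 FPKM in G9a/GLP dKO and 4.06 to 10.02 in G9a het, so the pair overlapped. The helicase subunits did not all stand on one side. Mcm2 had 21.2 FPKM in G9a/GLP dKO, 19.4 in G9a KO GLP het, 19.1 in G9a KO, against 14.9 in G9a het. Mcm6 had 35.5 FPKM in each of the 3 knockout libraries, against 27.2 in G9a het. Mcm3, Mcm4 and Mcm5 were likewise lowest in G9a het, with log2 ratios of 0.27, 0.32 and 0.28 for G9a/GLP dKO. Mcm7 (chromosome 5, 138605817 to 138613090) went the other way and was the 1 gene of the 36 that was highest in G9a het: 14.3 FPKM in G9a/GLP dKO, 14.3 in G9a KO GLP het, 17.9 in G9a KO, against 18.2 in G9a het. Its log2 ratio in G9a/GLP dKO was -0.33, and its deposited locus also holds the microRNA genes Mir106b, Mir25 and Mir93.

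Of the other S phase genes, the cyclins E differed more than the enzymes that make nucleotides. Ccne1 (cyclin E1) had 9.74 FPKM in G9a/GLP dKO, 8.95 in G9a KO GLP het, 10.1 in G9a KO, against 7.09 in G9a het. Ccne2 (cyclin E2) had 6.96 FPKM in G9a/GLP dKO, 9.06 in G9a KO GLP het, 6.68 in G9a KO, against 5.15 in G9a het. Both were lowest in G9a het and differed in which knockout library stood highest. Rrm1 was nearly level, at 35.7 FPKM in G9a/GLP dKO, 33.4 in G9a KO GLP het, 35.5 in G9a KO, against 33.3 in G9a het. Rrm2, the small subunit of the same reductase, had 19.7 FPKM in G9a/GLP dKO, 23.1 in G9a KO GLP het, 24.6 in G9a KO, against 19.7 in G9a het. Tyms, thymidylate synthase, had 8.84 FPKM in G9a/GLP dKO, 8.36 in G9a KO GLP het, 8.45 in G9a KO, against 7.15 in G9a het. The nucleotide enzymes thus spread less around G9a het than the cyclins did. Pcna, the sliding clamp of the polymerases, had 33.6 FPKM in G9a/GLP dKO, 23.6 in G9a KO GLP het, 34.7 in G9a KO, against 30.1 in G9a het, with the G9a KO GLP het library standing low.

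Among the kinases and cyclins that drive mitosis, Cdk1 showed the highest ratio in G9a/GLP dKO. Cdk1 (chromosome 10, 68799383 to 68815660) had 21.9 FPKM in G9a/GLP dKO, 22.7 in G9a KO GLP het, 19.5 in G9a KO, against 14.9 in G9a het. Its log2 ratio in G9a/GLP dKO was 0.53. Its partner Ccna2 (cyclin A2) had 41.2 FPKM in G9a/GLP dKO, 45.4 in G9a KO GLP het, 38.8 in G9a KO, against 31.9 in G9a het. Both genes were above G9a het in each knockout library and highest in G9a KO GLP het. Ccnb1 (cyclin B1) had 10.2 FPKM in G9a/GLP dKO, 12.9 in G9a KO GLP het, 10.01 in G9a KO, against 8.16 in G9a het. Ccnb2, Plk1 and Aurka, a B-type cyclin and kinases of the spindle poles, had log2 ratios of 0.16, 0.082 and 0.12 in G9a/GLP dKO. Aurkb, the kinase of the chromosomal passenger complex, stood further off, with 12.4 FPKM in G9a/GLP dKO, 13.5 in G9a KO GLP het, 10.6 in G9a KO, against 8.59 in G9a het.

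Bub1, Bub1b and Cdc20, genes of the spindle checkpoint and its target, were lowest in G9a het, by unequal amounts and by less than 1.5-fold in G9a/GLP dKO. Bub1, a checkpoint kinase at kinetochores, had 8.43 FPKM in G9a/GLP dKO, 8.81 in G9a KO GLP het, 7.24 in G9a KO, against 5.81 in G9a het. Bub1b (BubR1), part of the complex that holds back anaphase, had 10.95 FPKM in G9a/GLP dKO, 13.2 in G9a KO GLP het, 10.5 in G9a KO, against 10.2 in G9a het. It was nearly level in G9a/GLP dKO and G9a KO, with log2 ratios of 0.092 and 0.041. Cdc20, the activator of the anaphase-promoting complex that the checkpoint restrains, had 14.4 FPKM in G9a/GLP dKO, 14.5 in G9a KO GLP het, 14.8 in G9a KO, against 9.80 in G9a het. The 3 knockout values of Cdc20 lay close together and above G9a het, with log2 ratios between 0.52 and 0.55. The authors' interval for Cdc20 in G9a het, 4.41 to 15.2 FPKM, took in all 3.

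Centromere and spindle genes differed in how far they stood from G9a het. Cenpa, the histone H3 variant of centromeres, had 27.9 FPKM in G9a/GLP dKO, 30.7 in G9a KO GLP het, 24.3 in G9a KO, against 21.8 in G9a het. Kif23, a motor of the central spindle needed for cytokinesis, had 13.8 FPKM in G9a/GLP dKO, 17.1 in G9a KO GLP het, 14.7 in G9a KO, against 9.91 in G9a het. Kif11 (Eg5), the motor that pushes spindle poles apart, was the 1 mitotic gene lowest in G9a/GLP dKO, with 14.3 FPKM there, 15.1 in G9a KO GLP het, 16.4 in G9a KO, against 15.1 in G9a het. Kif20a, Tpx2 and Prc1, a kinesin and microtubule-binding proteins of the spindle, had log2 ratios of 0.36, 0.31 and 0.21 in G9a/GLP dKO. Mki67 (Ki-67), the usual marker of cycling cells, had 35.9 FPKM in G9a/GLP dKO, 38.9 in G9a KO GLP het, 38.4 in G9a KO, against 32.9 in G9a het. Its deposited values lay below their own intervals in every embryonic library but G9a KO, with G9a het at 32.9 FPKM and an interval of 33.2 to 82.5, as did those of the long genes Cenpe and Cenpf in all 4 libraries. Cenpe and Cenpf, a kinetochore motor and a kinetochore protein, were nearly level, with log2 ratios of 0.084 and 0.015 in G9a/GLP dKO.

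In the library labelled G9a KO GLP het, 33 of 36 log2 ratios were above 0, against 48% of all 15317 genes. The median was 0.30, against -0.017 over all genes, and none was 2-fold higher (background 2.29%) or lower (4.84%). At 1.5-fold, 5 of the 36 were higher, against 6.77% of all genes, and none was lower, against 11.3%. The 5 were Cdt1 and Ccne2 of S phase, and Ccnb1, Aurkb and Kif23 of mitosis. Kif23 had the highest ratio, 0.73, and Pcna the lowest, -0.34. In the library labelled G9a KO, 34 of 36 were above 0, against 52.3% of all 15259 genes, with a median of 0.23, against 0.016 over all genes. Again none was 2-fold higher (background 1.21%) or lower (1.78%), and the highest ratio was 0.55, for Cdc20. The authors' intervals overlapped with those of G9a het for all 36 genes in both libraries. Of all genes, 4.62% lay apart in the G9a KO GLP het library and 1.55% in that of G9a KO. At these shares, too, few of 36 genes would lie apart.

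**Figure D2:**
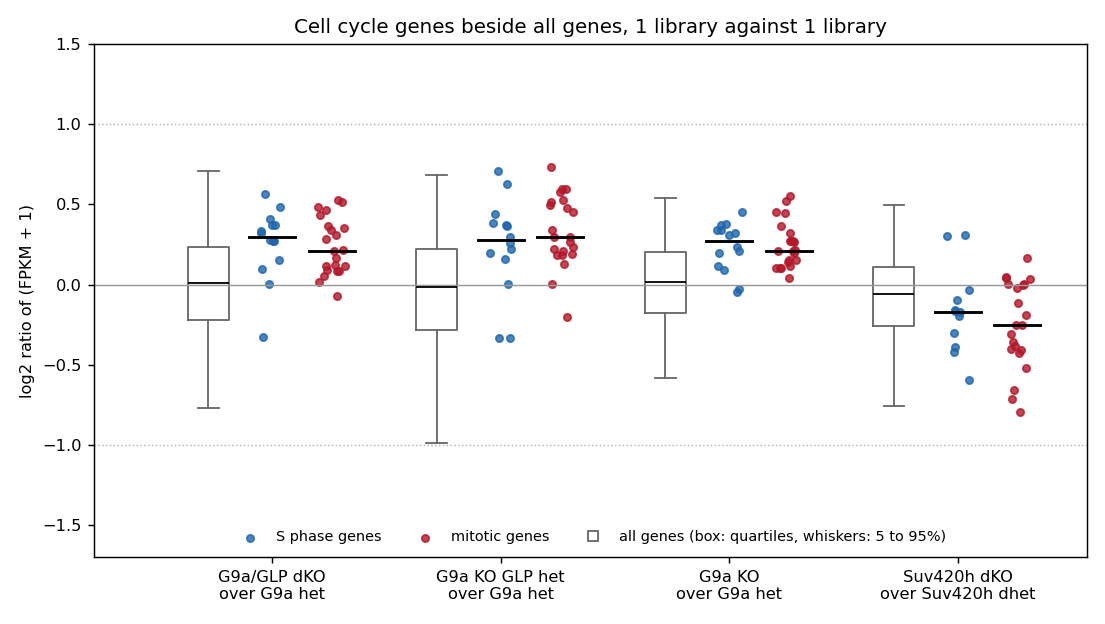
Log2 ratios of (FPKM + 1) of S phase genes (blue) and mitotic genes (red) in the 4 comparisons, each a single library over a single library, with a black bar at the median and a box with 5% to 95% whiskers for all genes compared. In the 3 embryonic comparisons most points lie above 0 and below the dotted lines at 2-fold; in the postnatal one most lie below 0.

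These 3 comparisons share the G9a het library, so a single low library would place all of them on one side. A difference common to all libraries labelled as G9a knockouts would do so too. The design cannot tell these apart, and neither was tested. G9a het was the lowest of the 4 libraries for 31 of 36 genes, 11 of S phase and 20 of mitosis, against 28.4% of all 15682 genes, and for 33 of 36 when G9a KO GLP het was left out, against 37%. The exceptions were Cdt1, lowest in G9a KO, Kif11, lowest in G9a/GLP dKO, and Mcm7, Pcna and Ube2c, lowest in G9a KO GLP het. Set against G9a KO in place of G9a het, the medians of G9a/GLP dKO were 0.0041 for S phase and -0.044 for mitotic genes, and against G9a KO GLP het 0.032 and -0.11. The highest library was G9a KO GLP het for 17 genes (13 of them mitotic), against 24.6% of all genes, G9a KO for 11, against 24.8%, and G9a/GLP dKO for 7, against 22.5%. The summed level of the 36 genes was 716.5 FPKM in G9a/GLP dKO, 726.7 in G9a KO GLP het, 719.1 in G9a KO, against 609.0 in G9a het. The 3 knockout libraries were alike in this sum, which was 0.203% of all FPKM in G9a/GLP dKO, 0.201% in G9a KO GLP het, 0.196% in G9a KO, against 0.167% in G9a het.

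S phase and mitotic genes differed between the libraries by like amounts. The geometric mean of the S phase genes was 15.3 FPKM in G9a/GLP dKO, 15.1 in G9a KO GLP het, 14.98 in G9a KO, against 12.5 in G9a het. That of the mitotic genes was 17.0 FPKM in G9a/GLP dKO, 18.3 in G9a KO GLP het, 17.2 in G9a KO, against 14.2 in G9a het. The ratio of mitotic to S phase means was 1.12 in G9a/GLP dKO, 1.21 in G9a KO GLP het, 1.15 in G9a KO, against 1.14 in G9a het.

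Cell type markers differed between the same libraries, and in bulk tissue fewer cells of a type and less RNA per cell cannot be told apart. Markers of neuronal progenitors, which include Neurog1 and Neurod1, summed over 7 genes to 129.1 FPKM in G9a/GLP dKO, 111.5 in G9a KO GLP het, 135.5 in G9a KO, against 130.7 in G9a het. Those of horizontal basal cells summed over 4 genes to 505.6 FPKM in G9a/GLP dKO, 472.2 in G9a KO GLP het, 532.2 in G9a KO, against 418.4 in G9a het. Krt5 and Krt14 made up most of this sum and were lowest in G9a het, whereas Trp63, a defining marker of these cells, had 27.8 FPKM in G9a/GLP dKO, 32.1 in G9a KO GLP het, 35.04 in G9a KO, against 35.7 in G9a het, where it was highest. Mature olfactory neuron markers, led by Omp, summed over 9 genes to 117.5 FPKM in G9a/GLP dKO, 84.8 in G9a KO GLP het, 143.2 in G9a KO, against 278.5 in G9a het, where they were highest; none of the 9 was at 0 in any of the 6 libraries. Keratinocyte markers summed over 6 genes to 3063 FPKM in G9a/GLP dKO, 2145 in G9a KO GLP het, 1541 in G9a KO, against 1032 in G9a het. Enamel organ markers, led by Amelx, summed over 4 genes to 8.52 FPKM in G9a/GLP dKO, 24.1 in G9a KO GLP het, 465.6 in G9a KO, against 915.6 in G9a het. No marker of these 5 lists was at 0 in any embryonic library. Erythroid markers, whose precursors also divide, summed over 10 genes to 2285 FPKM in G9a/GLP dKO, 1153 in G9a KO GLP het, 4573 in G9a KO, against 1926 in G9a het. Most of the erythroid sum was Hba-a1 and Hba-a2 in each embryonic library, and these globin genes stood in opposite orders. The G9a het library held 0.02048 FPKM of Hba-a1 and 1805 of Hba-a2. The G9a KO library held 4218 FPKM of Hba-a1 and 106.0 of Hba-a2. How reads were assigned between these globin genes is not stated, and its part in these orders was not tested. Forebrain markers summed over 6 genes to 30.9 FPKM in G9a/GLP dKO, 1.12 in G9a KO GLP het, 68.8 in G9a KO, against 22.0 in G9a het, with 1 gene at 0 in G9a KO GLP het. Mesenchyme markers summed over 6 genes to 2900 FPKM in G9a/GLP dKO, 3224 in G9a KO GLP het, 3307 in G9a KO, against 2863 in G9a het. The mesenchyme sum was mostly Col1a1, which had 2685 FPKM in G9a/GLP dKO, 2973 in G9a KO GLP het, 3146 in G9a KO, against 2710 in G9a het. Members of that list did not share one order: Pdgfra had 50.3 FPKM in G9a/GLP dKO, 59.9 in G9a KO GLP het, 41.5 in G9a KO, against 53.7 in G9a het. The keratinocyte sum was lowest in G9a het, while the erythroid and forebrain sums went both ways. The part of any of these cells in the levels of the 36 genes was not tested.

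The rest of the pathway was followed in 6 lists with 135 genes, and the lists for DNA replication, mitosis and G1 had medians above 0 in all 3 knockout libraries, as the 36 genes did. Of 37 replication factors, 30 were above 0 in G9a/GLP dKO, 27 in G9a KO GLP het, 33 in G9a KO. Over all genes, 51.1%, 48% and 52.3% were above 0 in these libraries, in that order, the background for each such count below. The medians of the replication factors were 0.15 in G9a/GLP dKO, 0.18 in G9a KO GLP het, 0.22 in G9a KO. Pole2, a subunit of polymerase epsilon, had 6.84 FPKM in G9a/GLP dKO, 6.74 in G9a KO GLP het, against 3.63 in G9a het. Of 48 other mitotic genes, 38 were above 0 in G9a/GLP dKO, 42 in G9a KO GLP het, 46 in G9a KO, with medians of 0.18 in G9a/GLP dKO, 0.31 in G9a KO GLP het, 0.24 in G9a KO. Ccnf (cyclin F), the substrate adaptor of an SCF ubiquitin ligase, had 10.7 FPKM in G9a/GLP dKO, 8.17 in G9a KO GLP het, 8.15 in G9a KO, against 4.21 in G9a het. It was the 1 gene of these lists that was 2-fold higher in G9a/GLP dKO, against 2.28% of all genes, and the 1 whose authors' intervals lay apart, against 3.49%, with a log2 ratio of 1.17. Nek2, a centrosomal kinase, stood lower, at 15.03 FPKM in G9a/GLP dKO, 19.4 in G9a KO GLP het, 18.7 in G9a KO, against 22.1 in G9a het.

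The lists of regulators differed among themselves, and no difference between lists was tested. G1 cyclins and kinases were above 0 for 6 of 7 genes in G9a/GLP dKO, 5 in G9a KO GLP het, 5 in G9a KO, with medians of 0.40 in G9a/GLP dKO, 0.44 in G9a KO GLP het, 0.14 in G9a KO. Among them was Ccnd3 (cyclin D3), at 108 FPKM in G9a/GLP dKO, 108 in G9a KO GLP het, 86.7 in G9a KO, against 66.7 in G9a het. Ccnd1 and Cdk6 stood the other way in G9a KO, with log2 ratios of -0.26 and -0.52. Cyclin-dependent kinase inhibitors and retinoblastoma-family proteins were above 0 for 5 of 8 measured genes in G9a/GLP dKO and in G9a KO, and for 3 in G9a KO GLP het. Their medians were 0.032 in G9a/GLP dKO, -0.061 in G9a KO GLP het, 0.052 in G9a KO. Cdkn1c (p57), an imprinted inhibitor that holds cells in G1, was the member of that list past 2-fold, in G9a KO GLP het, where 2.29% of all genes were 2-fold higher, at 567.6 FPKM in G9a/GLP dKO, 651.5 in G9a KO GLP het, 416.5 in G9a KO, against 324.4 in G9a het; its log2 ratio was 0.81 in G9a/GLP dKO, 1.004 in G9a KO GLP het, 0.36 in G9a KO. This inhibitor was thus lowest in G9a het, as were most genes of division. Rbl1 and Rbl2, of the retinoblastoma family, were highest in G9a het instead, at 12.6 and 13.1 FPKM. Transcription factors of the cycle were above 0 for 12 of 18 genes in G9a/GLP dKO, 11 in G9a KO GLP het, 8 in G9a KO, with E2f4, a repressor E2F, at 24.7 FPKM in G9a/GLP dKO and 24.5 in G9a KO GLP het, against 16.5 in G9a het. Foxm1, an activator of mitotic genes, had 10.6 FPKM in G9a/GLP dKO, 11.2 in G9a KO GLP het, 9.78 in G9a KO, against 7.91 in G9a het. Mybl2 (B-MYB), which joins the proteins of the DREAM core when mitotic genes are switched on, had 2.52 FPKM in G9a/GLP dKO, 2.79 in G9a KO GLP het, 2.90 in G9a KO, against 2.15 in G9a het. Both were lowest in G9a het. Checkpoint and recombination genes were balanced, with 8 of 15 above 0 in G9a/GLP dKO, 6 in G9a KO GLP het, 7 in G9a KO, against 51.1%, 48% and 52.3% of all genes.

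**Figure D3:**
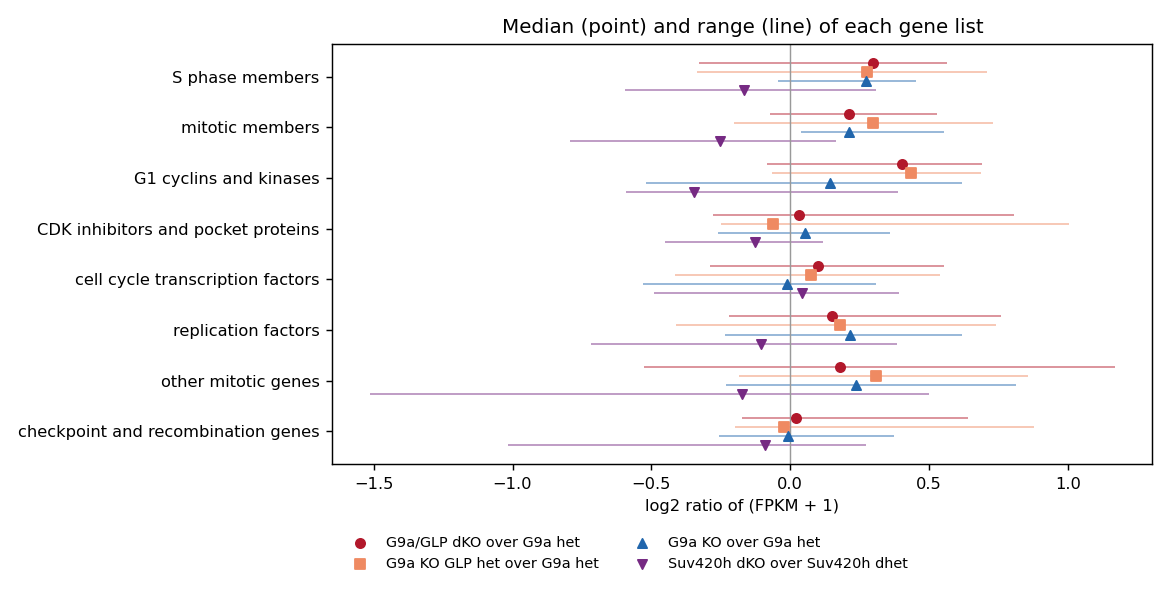
Median (point) and range (line) of the log2 ratio of (FPKM + 1) for the S phase and mitotic genes described here and for the 6 other pathway lists, in the 4 comparisons. Medians of the replication, mitotic and G1 lists lie right of 0 in the 3 embryonic comparisons, where those of inhibitors and checkpoint genes lie near 0. In Suv420h dKO over Suv420h dhet all medians but that of the transcription factors lie left of 0.

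At PND21 the 36 genes were low in both libraries, and most were slightly lower in the library labelled Suv420h dKO than in Suv420h dhet. Cdc6 and Ccne1 stayed under 1 FPKM in both and gave no ratio: Cdc6 had 0.570 FPKM in Suv420h dKO, against 0.477 in Suv420h dhet, and Ccne1 had 0.920 FPKM in Suv420h dKO, against 0.869 in Suv420h dhet. Of the 34 others, 26 were below 0 and 8 above, against 59.6% of all 15162 genes below 0. Their median log2 ratio was -0.19, against -0.060 over all genes. None was 2-fold lower (background 2.33%) or higher (1.21%), and 4 were 1.5-fold lower, against 8.47% of all genes. None had a q under 0.05 in the authors' deposited table, against 4.11% of the 15101 genes it tested, and its lowest q among the 36 was 0.0706, for Kif11, in a test of 1 library against 1 library.

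The 4 genes past 1.5-fold on the log2(FPKM + 1) scale came from the helicase and from the machinery of mitosis. This scale understates the differences of such low genes, and with a pseudocount of 0.1 in place of 1, 2 mitotic genes passed 2-fold. Cenpa had 2.21 FPKM in Suv420h dKO, against 4.55 in Suv420h dhet, the lowest log2 ratio at -0.79. Cdc20 had 1.26 FPKM in Suv420h dKO, against 2.70 in Suv420h dhet. Kif11 (chromosome 19, 37450893 to 37496349) had 3.11 FPKM in Suv420h dKO, against 5.47 in Suv420h dhet. Fragments were judged from the step between low receptor values and the longest transcript of each gene. The values of Cenpa and Cdc20 rest on few. Cenpa had about 43 in Suv420h dKO, against 107 in Suv420h dhet, and Cdc20 about 30 in Suv420h dKO, against 78 in Suv420h dhet. Kif11 had about 198 in Suv420h dKO, against 422 in Suv420h dhet, where the medians of the 36 genes were 137.5 and 205.5. Mcm3 had 3.09 FPKM in Suv420h dKO, against 5.18 in Suv420h dhet, a log2 ratio of -0.60. The authors' deposited table gives q values of 0.272 for Cenpa, 0.292 for Cdc20 and 0.231 for Mcm3.

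Other genes of the set were level or stood the other way. Pcna had 34.2 FPKM in Suv420h dKO, against 27.5 in Suv420h dhet, and was the most abundant of the 36 in both. Ccne2 had 1.84 FPKM in Suv420h dKO, against 1.29 in Suv420h dhet, the highest log2 ratio at 0.31. Cdk1 had 2.62 FPKM in Suv420h dKO, against 2.53 in Suv420h dhet. Ccna2 had 8.55 FPKM in Suv420h dKO, against 7.52 in Suv420h dhet. Cdk1 and the cyclins A2 and B1 were therefore at or slightly above their Suv420h dhet levels. The B-type cyclin Ccnb2 went the other way, with 3.905 FPKM in Suv420h dKO, against 4.596 in Suv420h dhet, a log2 ratio of -0.19. Plk1, with 1.90 FPKM in Suv420h dKO, against 3.16 in Suv420h dhet, was also among the lower genes. Top2a had 13.0 FPKM in Suv420h dKO, against 17.3 in Suv420h dhet. Mki67 had 12.2 FPKM in Suv420h dKO, against 14.7 in Suv420h dhet, and both genes were thus lower in the double knockout. The geometric mean of the S phase genes was 3.60 FPKM in Suv420h dKO, against 3.997 in Suv420h dhet, and that of the mitotic genes 3.60 FPKM in Suv420h dKO, against 4.53 in Suv420h dhet. With both libraries scaled to the same FPKM sum, the median of all genes lay at -0.23 and that of the 36 genes at -0.36. On that scale 32 of the 36 were below 0 and 4 above, where only 21.2% of all genes were above 0. Relative to all genes the 36 stood at -0.13 as deposited and at -0.12 on that scale.

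Of the 6 pathway lists, 5 lay mostly below 0 in Suv420h dKO, where 59.6% of all genes did too. Of 47 measured other mitotic genes 33 were below 0, with a median of -0.17, and of 35 replication factors 23, with a median of -0.10. Pttg1 (securin), the inhibitor of separase that is destroyed at anaphase, had 5.95 FPKM in Suv420h dKO, against 18.9 in Suv420h dhet, and the authors' deposited table lists its q as 0.00329. Pbk, a mitotic kinase, had 1.71 FPKM in Suv420h dKO, against 4.48 in Suv420h dhet, and in the authors' deposited table its q is 0.0833. Rad54l, a motor of homologous recombination, had 0.434 FPKM in Suv420h dKO, against 1.90 in Suv420h dhet, for which the authors' deposited table has q = 0.0175. Pttg1 and Rad54l were the only genes of the 6 lists with a q under 0.05 in the authors' deposited table, against 4.11% of all genes it tested, and Rad54l passed the minimum of 1 FPKM only through Suv420h dhet. G1 cyclins and kinases were below 0 for 6 of 7 genes, CDK inhibitors and pocket proteins for 7 of 9, checkpoint genes for 8 of 12 and transcription factors for 6 of 18. The medians were -0.34 for G1 cyclins and kinases, -0.13 for inhibitors, -0.091 for checkpoint genes and 0.042 for transcription factors, against -0.060 over all genes. Foxm1 had 1.68 FPKM in Suv420h dKO, against 2.16 in Suv420h dhet. Connective tissue differed between the same libraries: 5 measured mesenchyme markers were all lower, summing over the list to 684.6 FPKM in Suv420h dKO, against 1900 in Suv420h dhet, where 1 listed gene was at 0. Cartilage and bone markers summed to 480.9 FPKM in Suv420h dKO, against 1558 in Suv420h dhet, and progenitor markers to 82.2 FPKM in Suv420h dKO, against 94.6 in Suv420h dhet. The part of these tissues in the levels of the 36 genes was not tested.

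Between the ages the levels of the division genes lay further apart than between genotypes of 1 age. Setting Suv420h dhet at PND21 beside G9a het at E18.5, all 36 genes were lower at PND21 and 30 were 2-fold lower, 12 of S phase and 18 of mitosis, against 14.8% of 15939 genes 2-fold lower and 11.8% 2-fold higher. The median log2 ratio was -1.40, against -0.083 over all genes. Xist had 120 FPKM in Suv420h dhet, against 0.242 in G9a het, so the sex of the animals differed as well. Age, genotype, sex and table cannot be told apart here. The tables were scaled separately, so ranks within a library are given as well. The median percentile among the 21982 shared symbols of a library was 52.3 at PND21 and 74.3 at E18.5 for S phase genes, and 50.9 at PND21 and 69.5 at E18.5 for mitotic genes. All 36 had a lower percentile at PND21, against 50.3% of all genes. The 36 genes together summed to 212.6 FPKM at PND21, against 609.0 FPKM at E18.5.

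The genes differed in how far the ages lay apart. Ccne1 had 0.869 FPKM at PND21, against 7.09 at E18.5, the widest fold of the set at 8.16, although it passed the minimum of 1 FPKM only through the embryonic library, as did Cdc6. Cdk1 had 2.53 FPKM at PND21, against 14.9 at E18.5. Ube2c had 8.22 FPKM at PND21, against 48.3 at E18.5, and Birc5 had 7.15 FPKM at PND21, against 40.4 at E18.5. These 3 mitotic genes lay 5.65-fold to 5.89-fold apart, while Pcna was nearly level, with 27.5 FPKM at PND21, against 30.1 at E18.5. The gap was thus far smaller for the clamp than for the mitotic genes. Cenpe, Aurka and Cenpf lay 1.74-fold, 1.80-fold and 1.89-fold apart. Mki67 had 14.7 FPKM at PND21, against 32.9 at E18.5, a 2.24-fold difference, and stayed at percentile 75.2 of the postnatal library, against 90.2 of the embryonic one.

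**Figure D4:**
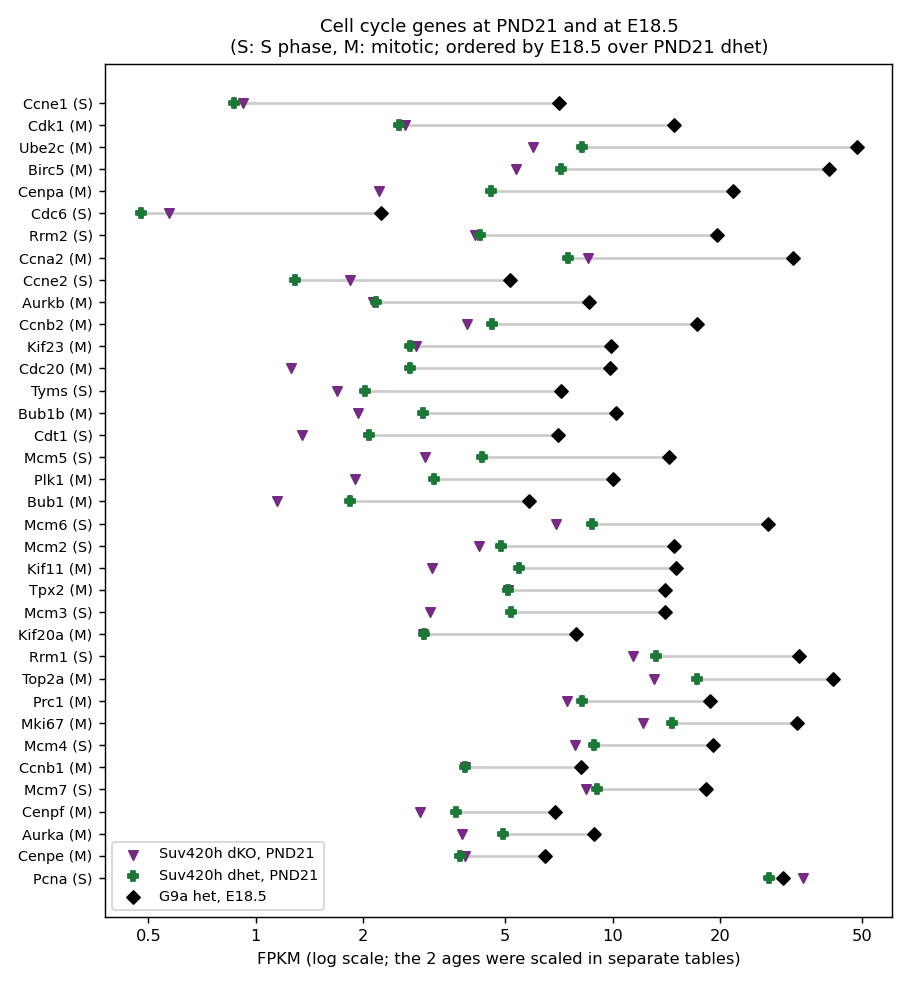
FPKM (log scale) of the 36 genes in the 2 PND21 libraries and in G9a het at E18.5, joined by a grey line from Suv420h dhet to G9a het and ordered by that fold. Every black diamond lies right of its green plus, from 8.16-fold for Ccne1 at the top to 1.09-fold for Pcna at the bottom.

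The other lists of the pathway shared this direction in part. All 48 other mitotic genes were lower at PND21, 31 of them 2-fold, and 12 of 37 replication factors were 2-fold lower, against 14.8% of all genes. Among inhibitors, 3 of 9 measured genes were 2-fold lower and 1 was 2-fold higher, against 11.8% of all genes. Cdkn1c had 9.97 FPKM at PND21, against 324.4 at E18.5, whereas Cdkn2d (p19), an inhibitor of the cyclin D kinases, had 8.95 FPKM at PND21, against 0.134 at E18.5, and passed the minimum of 1 FPKM only through the postnatal library. The tissue sampled was not alike either. Mature olfactory neuron markers summed to 3834 FPKM at PND21, against 278.5 at E18.5, and all 9 were higher at PND21. Progenitor markers summed to 94.6 FPKM at PND21, against 130.7 at E18.5, and were thus closer than the 36 genes were. Markers of horizontal basal cells (29.95 FPKM at PND21, against 418.4 at E18.5), skeletal muscle (34.8 FPKM at PND21, against 662.6 at E18.5), endothelium (13.6 FPKM at PND21, against 63.2 at E18.5) and keratinocytes (3.57 FPKM at PND21, against 1031 at E18.5) were lower at PND21, with 2 of the 6 keratinocyte markers at 0 there. The share of the 36 genes' difference that lies in these other cell types was not tested.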

How the data were processed

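Polyadenylated RNA, made into libraries with ScriptSeq V2 per the labels' protocols, was measured in 6 libraries with 1 per genotype. The build was mm9 and the tools Cuffdiff, Cufflinks and TopHat, per the submitters' processing notes; versions and the assignment of reads are not stated there. FPKM values were deposited by the authors for each symbol, with confidence bounds (level not given) in the embryonic table, and p-values and q-values of 1 library against 1 library in the postnatal table, per the file headers. Depth per library is not stated; from the steps between low Olfr values, 1 fragment was worth 0.0757 FPKM times kb in Suv420h dKO and 0.0624 in Suv420h dhet, by a rule set after the data were seen, and these give the estimated fragments. The estimate took the longest transcript of each gene, so it is too high where the main transcript is shorter. Embryonic depth was not estimated.

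The 36 genes and all lists were chosen with earlier results of these data known. From FPKM, log2 ratios with a pseudocount of 1 were computed for genes at 1 FPKM or more in either library (Python 3.11.15, pandas 2.3.3). Groups came from the labels. Background shares cover each whole table; a call is 2-fold. Named genes were the 36, the 2 highest and 2 lowest of each pathway list per comparison, the first 3 of each marker list and the targeted genes; Xist and the age values of Cdkn2d were chosen after their values were seen. Some genes that fall under this rule are not reported here. Printed promoters are the 3 mitotic and 2 S phase genes highest in G9a het, chromosome 18 left out; the first window was used where 2 were listed. Loci of 5 genes (Mcm7, Ccne2, Ccna2, Cdc20, Kif20a) are shared with other symbols, and whether counting used strand is not given.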

Additional observations from a re-analysis of the deposited data

How the results depend on the processing

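Of 122 alternative values for 25 results, 104 kept their direction and size, 14 moved and 4 changed sign. Every alternative was run. A log2 value kept its size if it moved by less than 0.1, and a count if it stayed within 1.5-fold. Some of the 104 could not have differed. In the embryonic comparisons all 36 genes were at 1 FPKM or more, so dropping that minimum changed nothing. The intervals there were checked only for genes past 2-fold, and the count of these was 0. The G9a/GLP dKO median was 0.30 for S phase and 0.21 for mitotic genes against G9a het. Against G9a KO in place of G9a het, the G9a/GLP dKO median was 0.0041 for S phase and -0.044 for mitotic genes. Against G9a KO GLP het it was 0.032 and -0.11. The positive medians thus depended on G9a het as the reference. The other references are labelled as G9a knockouts too, so this cannot tell a low G9a het library from a difference shared by the knockouts. The log2 ratio of mitotic to S phase levels was -0.029 for G9a/GLP dKO and 0.014 with medians in place of geometric means, and -0.18 for Suv420h dKO and 0.072 with medians. Lowering the call to 1.5-fold gave 2 S phase and 3 mitotic genes in G9a KO GLP het, and 1 and 3 in Suv420h dKO, against 0 at 2-fold. On a scale of equal FPKM sums (TPM scale), Suv420h dKO medians were -0.34 for S phase and -0.44 for mitotic genes, with 1 mitotic gene past 2-fold; a pseudocount of 0.1 gave 2. For PND21 beside E18.5, alternatives chosen after seeing the data gave S phase and mitotic medians of -1.95 and -1.89 on the TPM scale and -1.67 and -1.63 with a pseudocount of 0.1. The causes were not tested. No paired analysis was possible because each genotype has 1 library. With estimated fragments under 100 for 13 of the 36 genes in Suv420h dKO and for 6 in Suv420h dhet, depth limits the low postnatal values.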
